A study of Mus musculus with 150 samples.

Results

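The lung tumour T1 held a group of cells that had lost chromosome 10, and these cells were set against all other cells of the same tumour on the remaining chromosomes. Copy number was read from sequenced genomic DNA, with 1 cell per library, and 50 cells of T1 were sequenced among 150 cells of 3 tumours (T1, T7 and T9) of 1 mouse. The members were the T1 cells whose median log2 ratio over chromosome 10 was at or below -0.415, the log2 of 1.5 copies over 2. The rule was applied to the 47 T1 cells whose noise, a scaled difference between neighbouring bins, was at most 0.267. It chose 13 cells with chromosome 10 lost and left 34 other T1 cells. In T7 the same rule chose 8 cells against 40 others, and in T9 it chose 0 cells. Both T1 groups came from the same tumour, dissected 30 weeks after induction, so they share the genotype of the mouse, its treatment and its age. The mice had a mixed C57BL/6 x Sv129 background with floxed Trp53 and Cre-dependent reporters (tdTomato, Luciferase) at Rosa26. The protocols name a Cre adenovirus under the SPC promoter, which is active in alveolar type 2 cells, as one way of induction. The labels do not say which virus this mouse received. The source label reads AT2 cells, and DNA copy number holds no marker that could check it.

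In such tumours, cells that gain or lose whole chromosomes or large parts of them pass the change to their daughters, so cells that share several changes can belong to 1 subclone. Loss of a chromosome removes 1 copy of each gene on it. Mouse chromosome 10 carries Mdm2, whose protein drives the degradation of p53, Cdk4, a kinase of the entry into S phase, and Stk11, a kinase known in human lung adenocarcinoma as a tumour suppressor (LKB1).

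All values below are log2 ratios relative to the median of the autosomal bins of the same cell, in bins of about 500 kb (median 499.6 kb). A level is the median of a cell's bins, and a group's level is the median over its cells. A difference is the cells with chromosome 10 lost minus the other T1 cells. All cells come from 1 tumour of 1 animal, so each group is a single sample, no test between the groups was possible, and no difference below was tested. Intervals on shares of cells are exact Clopper-Pearson 95% intervals, and for 0 cells the limit that 3 cells of the total give is printed. For 0 of 34 cells this is 8.82%, which is lower than the exact upper limit of 10.3%. The intervals and the limit cover counting error only. The groups overlapped in technical measures. Noise had a median of 0.203 (0.168 to 0.251) in the cells with chromosome 10 lost and 0.190 (0.105 to 0.266) in the other T1 cells. The bases sequenced in the kept bins had a median of 97.5 Mb (58.8 to 143.5) in the cells with the loss and 95.2 Mb (20.4 to 169.7) in the others. A bin's departure from its chromosome's level was also rank-correlated with its number of genes. This correlation had a median of -0.14 (-0.24 to -0.07) in the cells with the loss and -0.13 (-0.25 to 0.24) in the others. The highest value was that of cell 180001.

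Chromosome 10 itself was selected on, so its values describe the groups and support nothing. Its level was -0.70 to -0.47 (median -0.55, SD 0.07) in the 13 cells with the loss, against -0.38 to -0.04 (median -0.17, SD 0.07) in the other 34. A step from 2 copies to 1 would be -1, and these levels fall short of it, so no copy count is given. Just inside the threshold lay cell 180038 at -0.51 and cell 180006 at -0.47, and just outside it cell 180019 at -0.38 and cell 180046 at -0.30. Lost segments covered 100% of chromosome 10 in 10 of the 13 cells, 89.4% in cell 180042, 83.5% in cell 180038 and 54.2% in cell 180006. Among the other T1 cells the largest share was 14.1%. Of the 23 listed cancer genes on chromosome 10, Mdm2 and Cdk4 both had a median segment mean of -0.57 with the loss and -0.17 without. Stk11 had -0.57 and -0.17. Each of these 3 genes lay in a lost segment in 13 of 13 cells with the loss and in 0 of 34 others. Ros1, a receptor tyrosine kinase, Foxo3, a transcription factor restrained by AKT, and Lats1, a kinase of the Hippo pathway, lay in a lost segment in 12 of 13 cells with the loss and in 0 of 34 others. Apaf1, the scaffold of the apoptosome, did so in 12 cells with the loss and 1 other, and Kitl, the ligand of the receptor Kit, in 11 cells with the loss and 1 other.

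At the thresholds used, more of the other autosomes was called gained or lost in the cells with chromosome 10 lost than in the rest of the tumour. Gained or lost segments covered a median of 35.0% (11.4 to 49.3) of the other autosomes in the 13 cells with chromosome 10 lost, and 17.5% (10.5 to 31.0) in the other 34. The share was higher than in every other T1 cell in 7 of the 13. Gained segments alone covered a median of 12.8% in the cells with the loss and 5.58% in the others. Lost segments alone covered 16.8% in the cells with the loss and 11.6% in the others. Of the 18 autosomes outside chromosome 10, the cells with the loss had a mean of 4.85 ± 1.86 called gained or lost (SD over 13 cells), against 3.00 ± 0.74 in the others (SD over 34 cells). The difference of 17.5 percentage points in the altered share depended on the processing: it was 11.4 points with each cell centred on its mode, 8.08 points with the ratio taken from depth and 1.66 points with stricter thresholds (0.45 and -0.70). With these thresholds the difference in called autosomes was 0.13 in place of 1.85. The cells with chromosome 10 lost also lay higher on most of the 18 autosomes, with a median difference of 0.08, as given below. Chromosome 18, at medians of 0.32 and 0.21, was called gained in 6 of 13 and 1 of 34 cells. How much of the gained share rests on this offset was not tested.

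**Figure D1:**
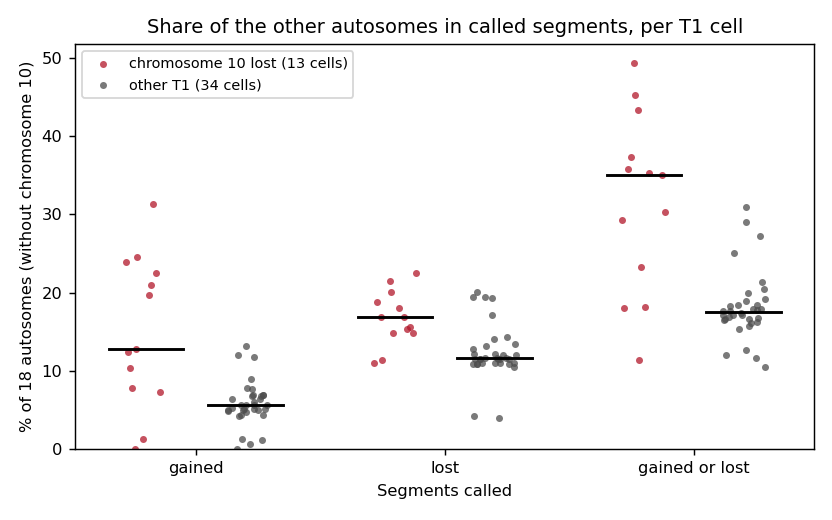
Share of the 18 autosomes outside chromosome 10 (%, vertical axis) that lay in gained segments, lost segments or either, with 1 point per T1 cell, a black line at the group median, cells with chromosome 10 lost in red at the left and the other T1 cells in grey at the right. For gained or lost segments together the medians are 35.0% and 17.5%, and 7 of the 13 red points lie above every grey point.

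The tumour's shared changes were present in both groups. Chromosome 4, which carries the tumour suppressor locus Cdkn2a, was called lost in 13 of 13 cells with chromosome 10 lost and in 32 of 34 other T1 cells. Chromosome 9 was called lost in 12 of 13 cells with the loss and in 32 of 34 others. Chromosome 6 was called gained in 10 of 13 cells with the loss (76.9%, 46.2 to 95.0) and in 27 of 34 others (79.4%, 62.1 to 91.3). The median levels of chromosome 4 were -0.62 with the loss and -0.71 without, and those of chromosome 9 were -0.51 and -0.59. These 3 chromosomes were thus called changed in most cells of both groups, although a part of chromosome 6 differed in level, as given below. The set of called autosomes was the same, loss of 4 and 9 with gain of 6, in 21 of the 34 other T1 cells, which held 12 distinct sets in all. The 13 cells with chromosome 10 lost also held 12 distinct sets, and no set was found in more than 2 of them. Sets can part at the gain threshold of 0.322, so their number does not measure how far the cells differ. Chromosome 19 was called gained at 0.333 in cell 180018 and not at 0.321 in cell 180035. Cells 180035 and 180038, correlated at 0.99, counted as different sets, with chromosome 18 at 0.35 and 0.26.

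Most autosomes differed between the groups by a similar small amount. The median of the 18 differences was 0.08, 14 of the 18 chromosomes were higher with chromosome 10 lost, and 12 lay within 0.08 of that median. Each level is relative to the cell's own autosomes, so the size of a difference is best read against 0.08. Chromosomes 1, 2, 8, 13, 14 and 19 lay further from it.

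Chromosome 13 differed most, and it was lower in the cells with chromosome 10 lost. Its level had a median of -0.45 (-1.28 to 0.25, SD 0.37) in the 13 cells with the loss and 0.13 (-0.27 to 0.25, SD 0.13) in the other 34. The difference was -0.58, or -0.66 relative to the common offset, and 10 of the 13 cells lay below every other T1 cell. Chromosome 13 was called lost in 9 of 13 cells with the loss (69.2%, 38.6 to 90.9) and in 0 of 34 others (up to 8.82%). This count depended on how a level was read, and the chromosome also holds a gained window. With a mean over bins weighted by the deposited weight it was 7.69% of the cells with chromosome 10 lost, and with the ratio from depth 16.7%.

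Chromosome 19 was higher in the cells with chromosome 10 lost, at a median of 0.31 (-0.19 to 0.38) against -0.15 (-0.59 to 0.54) in the other T1 cells. The difference was 0.46, and 12 of the 13 cells lay above the median of the others, although the ranges overlapped. Kif11, a motor protein of the mitotic spindle on chromosome 19, had a median segment mean of 0.32 with chromosome 10 lost and -0.14 without. It lay in a gained segment in 6 of 13 cells with the loss and 1 of 34 others, and in a lost segment in 0 and 1. Chromosome 1 was higher at 0.26 (-0.18 to 0.34) in the cells with the loss, against -0.06 (-0.66 to 0.15) in the others, a difference of 0.32. Of the 13 cells, 7 lay above every other T1 cell on chromosome 1. Chromosome 2 was lower at -0.07 (-0.54 to 0.22) in the cells with the loss, against 0.18 (-0.09 to 0.25) in the others, a difference of -0.25. On chromosome 2, 4 of the 13 cells lay below every other T1 cell.

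The remaining chromosomes named here had smaller differences before the common offset was taken off. Relative to that offset, chromosome 8 lay at -0.24 and chromosome 14 at -0.18, where chromosome 1 lay at 0.24. Chromosome 8 had a median of 0.04 with chromosome 10 lost and 0.20 without, a difference of -0.16 that was -0.057 with the weighted mean over bins, and the start of the chromosome went the other way. Chromosome 6 had 0.52 and 0.38, a difference of 0.14, and chromosome 14 had 0.07 and 0.17, a difference of -0.10. Chromosome 18, called gained in 6 of 13 cells with the loss (46.2%, 19.2 to 74.9) and 1 of 34 others (2.94%, 0.074 to 15.3), had 0.32 and 0.21. Its difference of 0.11 is close to the common offset of 0.08. Chromosomes 7, 11, 15 and 16 had differences of 0.11, 0.10, 0.12 and 0.10, also near that offset. Chromosome 5 was gained in 3 of 13 cells with the loss and 1 of 34 others. Chromosome 17 fell into a higher and a lower set of cells in both groups, from -0.22 to 0.31 with the loss and from -0.27 to 0.23 without. Its difference of 0.03 turned negative when any 1 of 7 cells was left out.

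**Figure D2:**
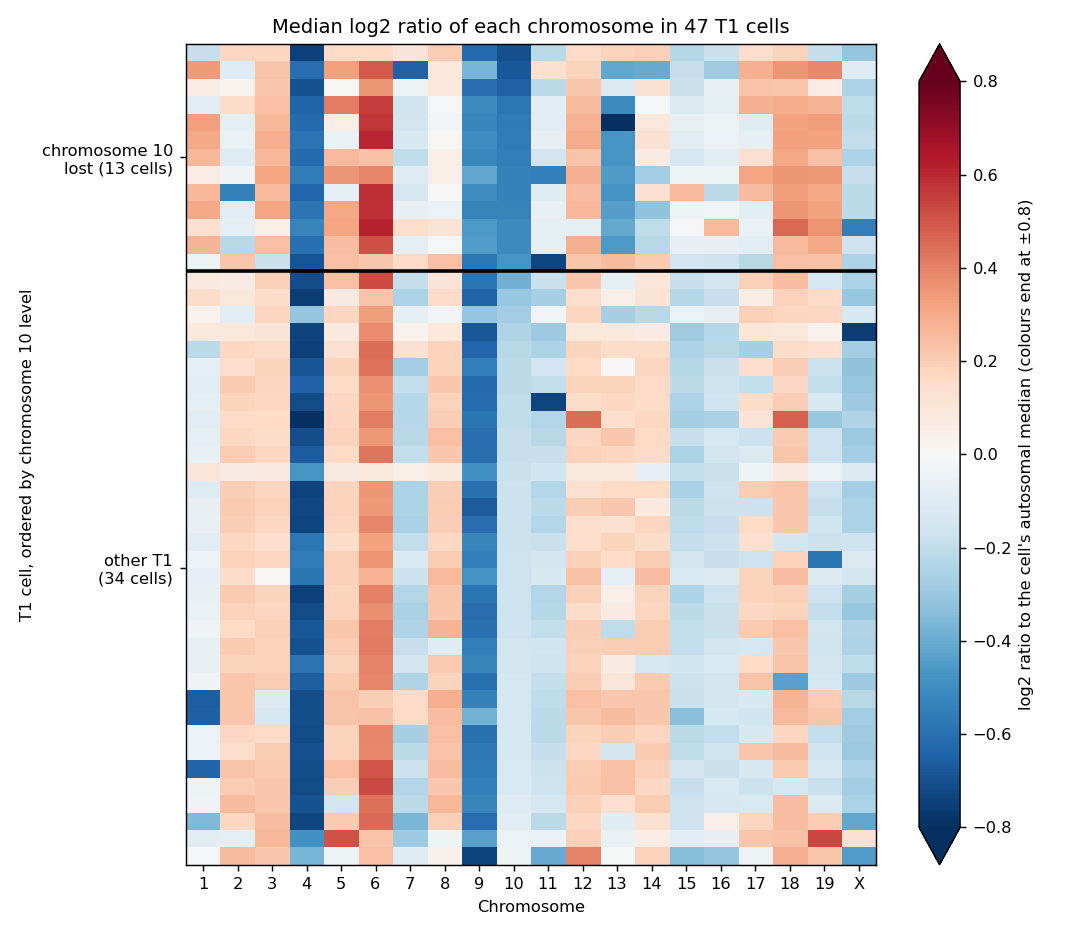
Median log2 ratio of each chromosome (horizontal axis, chromosomes 1 to 19 and X) in each of the 47 kept T1 cells (rows), with the 13 cells with chromosome 10 lost above the black line and the 34 other T1 cells below it, both ordered by chromosome 10. Red is above and blue below the cell's autosomal median. Chromosomes 4 and 9 are blue in nearly all rows, and chromosome 13 is blue and chromosome 19 red in most rows above the line.

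The bins within the chromosomes placed these differences more closely. Of 4551 autosomal bins outside chromosome 10, 626 (13.8%) had a median at least 0.2 higher in the cells with chromosome 10 lost, and 536 (11.8%) had one at least 0.2 lower. The median difference over all these bins was 0.05. The higher bins lay mainly on chromosome 1, with 254 of its 384 bins, and on chromosome 19, with 115 of its 116 bins. Chromosome 6 added 76 higher bins and chromosome 8 another 44. The lower bins lay on chromosome 13, with 181 of 233, chromosome 2, with 174 of 359, chromosome 14, with 98 of 243, and chromosome 8, with 72 of 252. Whole-chromosome offsets on 2 and 19 and part-chromosome steps on 1, 6, 8, 13 and 14 thus made up most of the bins that differed.

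**Figure D3:**
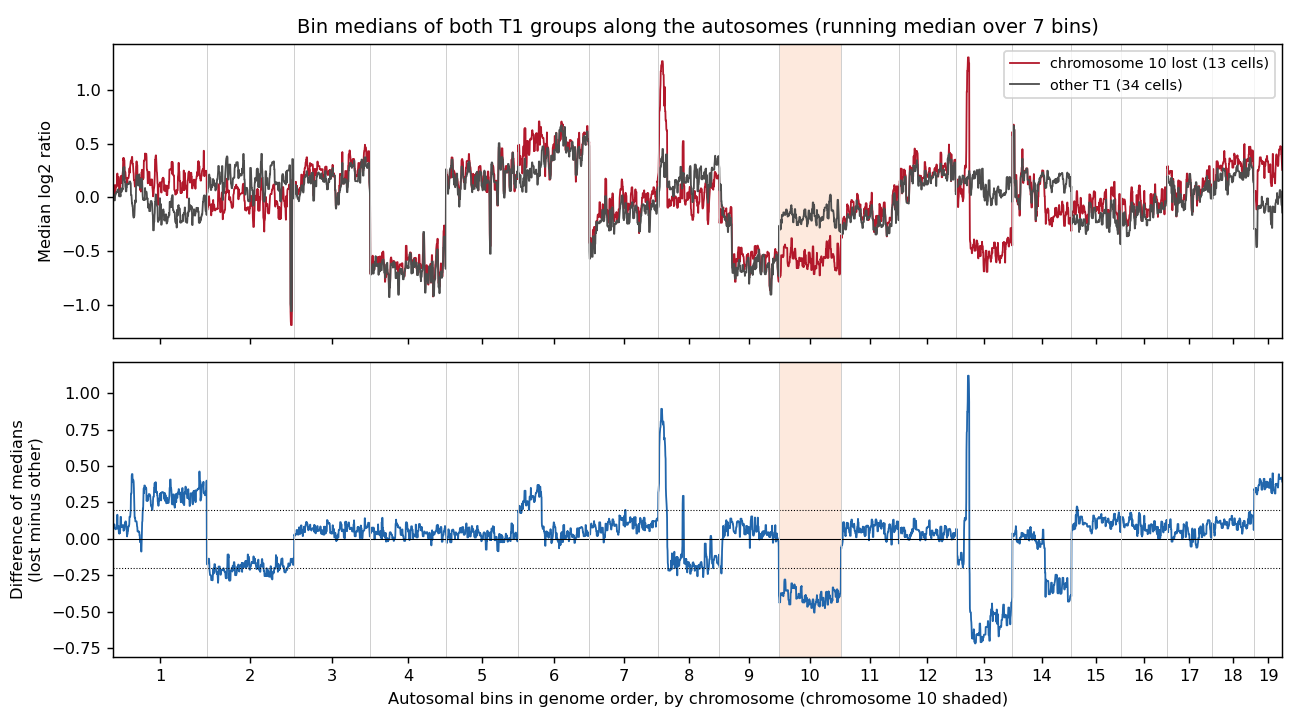
Upper panel, median log2 ratio per bin of the 13 cells with chromosome 10 lost (red) and the 34 other T1 cells (grey) along the autosomes, as a running median over 7 bins. Lower panel, the difference of the 2 medians (cells with the loss minus others), with dotted lines at 0.2 and -0.2 and chromosome 10 shaded, where the step was selected on. Steps in the lower panel start within chromosomes 1, 6, 8, 13 and 14.

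The distal part of chromosome 13 (chr13:31677455-120321639, GRCm38, 88.6 Mb with 580 protein-coding genes) had a median of -0.54 in the 13 cells with chromosome 10 lost and 0.09 in the other 34, a difference of -0.63. It was lost in 10 of 13 cells with chromosome 10 lost (76.9%, 46.2 to 95.0) and in 0 of 34 others (up to 8.82%). Of those 10 cells, 9 lay between -0.62 and -0.50, and cell 180018 lay at -1.40. The lowest of the other T1 cells was cell 180001 at -0.38. The median of the 10 cells was -0.55, and their median level of chromosome 10 was also -0.55. With stricter thresholds the loss was called in 7.69% of the cells with chromosome 10 lost. Tert, the catalytic subunit of telomerase, lies in this part and had a median segment mean of -0.53 with chromosome 10 lost and 0.12 without. Itga2, an integrin that binds collagen, had -0.51 with the loss and 0.10 without. Both genes lay in a lost segment in 10 of 13 cells with chromosome 10 lost and in 0 of 34 others.

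Directly beside this lost part, a narrow window of chromosome 13 (chr13:21630440-31175104, 9.54 Mb, 158 protein-coding genes) was gained to high levels in part of the cells. The window was gained in 9 of 13 cells with chromosome 10 lost (69.2%, 38.6 to 90.9) and in 4 of 34 others (11.8%, 3.30 to 27.5). Its level ran from -0.25 to 4.08 (median 0.68) in the cells with the loss and from -0.23 to 2.67 (median 0.17) in the others. The difference of 0.50 lay between 0.43 and 0.76 when 1 cell was left out. A level of 1 or more, which is a doubling against the rest of the cell, was reached in 6 of 13 cells with the loss and 4 of 34 others. Cells 180037 and 180002, both with chromosome 10 lost, had 4.08 and 3.88, and the next highest was cell 180001 of the other group at 2.67. The window was thus neither limited to the cells with chromosome 10 lost nor present in all of them. Sox4, a transcription factor of development, E2f3, a transcription factor of the cell cycle, and Irf4, a transcription factor of lymphoid cells, lie in it. Each had a median segment mean of 0.86 with chromosome 10 lost and 0.17 without, and lay in a gained segment in 9 of 13 and 4 of 34 cells. All 9 cells with chromosome 10 lost and a gained window had also lost the distal part of chromosome 13, and 0 of the 4 other T1 cells with a gained window had.

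The first 17.4 Mb of chromosome 8 (chr8:3000001-20443135, 120 protein-coding genes) showed the largest difference among the 8 longest runs. Its level had a median of 0.96 (0.27 to 1.06, SD 0.27) in the 13 cells with chromosome 10 lost and 0.26 (0.06 to 0.78, SD 0.14) in the other 34, a difference of 0.71. It was gained in 12 of 13 cells with the loss (92.3%, 64.0 to 99.8) and in 5 of 34 others (14.7%, 4.95 to 31.1), and 10 of the 13 cells lay above every other T1 cell. Cell 180006, counted among the 12, lay at 0.3225, barely past the gain threshold of 0.3219. The share of the other T1 cells rests on the threshold: it was 42.9% with the ratio from depth and 73.5% with looser thresholds (0.20 and -0.25). Irs2, an adaptor of insulin signalling, and the basement membrane collagens Col4a1 and Col4a2 lie there. They had a median segment mean of 0.93 with chromosome 10 lost and 0.20 without, in a gained segment in 11 of 13 and 4 of 34 cells. Beyond this region chromosome 8 went the other way. Fgfr1, a receptor for fibroblast growth factors, had -0.08 with chromosome 10 lost and 0.17 without. The far end of chromosome 8 (chr8:112253533-129301213) had 0.14 with the loss and 0.33 without, and it was gained in 2 of 13 and 19 of 34 cells.

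On chromosome 6, gained across the tumour, the proximal part (chr6:26723312-51733816, 25.0 Mb, 235 protein-coding genes) differed between the groups. Its median was 0.61 (0.18 to 0.68) in the cells with chromosome 10 lost and 0.22 (0.03 to 0.57) in the other T1 cells, a difference of 0.39. The gain was called in 10 of 13 cells with the loss (76.9%, 46.2 to 95.0) and 6 of 34 others (17.6%, 6.76 to 34.5), and 7 of the 13 lay above every other T1 cell. In the others the share was 6.06% with centring on the mode and 70.6% with looser thresholds. Braf, a kinase of the MAPK cascade, had a median segment mean of 0.52 with chromosome 10 lost and 0.18 without, and lay in a gained segment in 10 of 13 and 6 of 34 cells. Met, the receptor for hepatocyte growth factor on the same chromosome, had 0.51 and 0.18, in a gained segment in 9 of 13 and 4 of 34 cells.

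On chromosome 1, 235 of the 254 higher bins lay in or beyond the first of 2 long runs in the distal part, and 19 lay before it. The run chr1:83813271-195371971 (111.6 Mb, 761 protein-coding genes) had a median of 0.27 (-0.17 to 0.40) in the cells with chromosome 10 lost and -0.16 (-0.67 to 0.15) in the other T1 cells, a difference of 0.43. The cells with the loss did not form 1 level. Of the 13, 7 lay above every other T1 cell, at 0.27 to 0.40, and the other 6 lay at or below 0.07. In the other group, 4 of 34 cells had lost this run, and no cell with chromosome 10 lost had. The neighbouring run chr1:63536051-82279438 had 0.33 with the loss and -0.05 without, and was gained in 7 of 13 and 0 of 34 cells. The median of 0.33 lies next to the gain threshold of 0.322, and the count moved with the processing. Of the cells with the loss, 21.4% were called gained there with centring on the mode and 25.0% with the ratio from depth. With stricter thresholds (0.45 and -0.70) the share was 7.69%. A shorter proximal run, chr1:38493648-46006368 (7.51 Mb), was among the candidates but not among the 8 longest, and was singled out after its values were seen. It had 0.35 (-0.16 to 0.47) with the loss and -0.10 (-0.68 to 0.20) without, and was gained in 9 of 13 and 0 of 34 cells. On this run 10 of the 13 cells lay above every other T1 cell. Mdm4, a partner of Mdm2 in restraining p53, lies in the distal run. It had 0.27 with chromosome 10 lost and -0.15 without, in a gained segment in 3 of 13 and 0 of 34 cells and in a lost one in 0 and 3.

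The distal part of chromosome 14 (chr14:69915416-124802244, 54.9 Mb, 151 protein-coding genes) divided the cells with chromosome 10 lost among themselves. It was lost in 6 of 13 of them (46.2%, 19.2 to 74.9), at -0.58 to -0.42, and in 0 of 34 other T1 cells (up to 8.82%). The other 7 cells lay at -0.06 or higher. The medians were -0.06 with the loss and 0.19 without, and the difference of -0.25 became -0.42 to -0.43 when any 1 of those 7 cells was left out, as the middle of the group falls between its 2 levels. With stricter thresholds the loss of this part was called in 0 of 13 cells. All 6 cells had also lost distal chromosome 13, and 3 of them were among the 7 cells with high chromosome 1.

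A stretch of chromosome 2 (chr2:30044759-45050810, 166 protein-coding genes) had a median of -0.06 in the cells with chromosome 10 lost and 0.19 in the other T1 cells, a difference of -0.25, and 8 of the 13 lay below every other T1 cell. It was called lost in 1 of 13 and 0 of 34 cells, so the step was smaller than the one on chromosome 13. Bub1 and Bub1b, kinases of the spindle checkpoint, and Knl1, their platform at the kinetochore, lie elsewhere on chromosome 2. All 3 had -0.07 with chromosome 10 lost and 0.18 without, in a lost segment in 2 of 13 and 0 of 34 cells. Tsc1, an inhibitor of mTORC1 signalling, had -0.06 and 0.18. Foxa2, a transcription factor of lung epithelium, and Slc4a11, a membrane transporter, both lay at -0.07 with the loss, against 0.17 and 0.18 without.

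**Figure D4:**
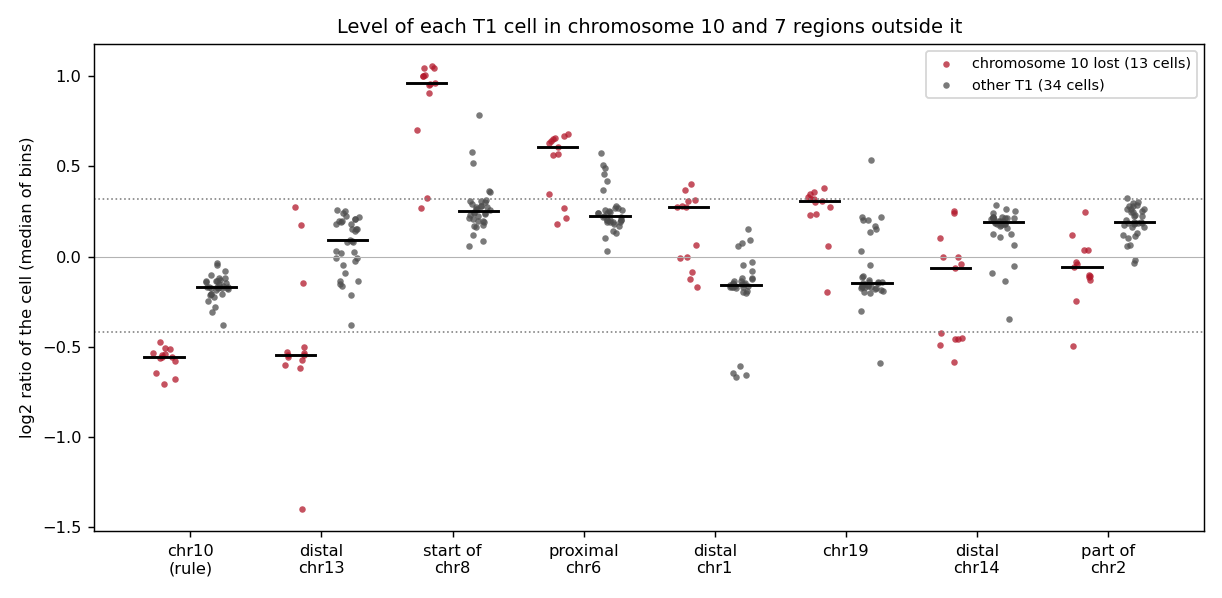
Log2 ratio of each T1 cell (vertical axis) over chromosome 10, on which the cells were chosen, and over 7 other regions, with the 13 cells with chromosome 10 lost in red at the left of each pair, the 34 other T1 cells in grey at the right, black lines at group medians and dotted lines at the thresholds of gain and loss. The cells with the loss form separate levels on distal chromosomes 13, 14 and 1.

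Other regions that T1 cells shared were found in both groups. The distal part of chromosome 3 (chr3:115510593-159939680) was gained in 8 of 13 cells with chromosome 10 lost and 4 of 34 others, at medians of 0.36 and 0.27, a difference of 0.09, close to the common offset. A part of chromosome 5 (chr5:111036893-121112190) was gained in 8 of 13 and 24 of 34 cells at 0.36 and 0.39. The start of chromosome 14 (chr14:3000001-13448902) was gained in 9 of 13 and 13 of 34 cells at 0.38 and 0.29. The end of chromosome 18 (chr18:77932880-90602639) was gained in 10 of 13 and 5 of 34 cells at 0.36 and 0.24. The end of chromosome 19 (chr19:49327614-61331566) was gained in 10 of 13 and 2 of 34 cells at 0.40 and -0.04. The start of chromosome 7 (chr7:3000001-19123448) was lost in 5 of 13 and 19 of 34 cells at -0.39 and -0.48. The main part of chromosome 9 (chr9:28342824-124495110) was lost in 13 of 13 and 33 of 34 cells at -0.57 and -0.66. For chromosomes 3, 7, 9, 14 and 18 the medians differed by 0.08 to 0.11, near the common offset. Among the cells with chromosome 10 lost, many of these shares moved with the processing. With the ratio from depth they were 8.33% for chromosome 14, 33.3% for 18, 0% for 9 and 100% for 5. Centring on the mode gave 28.6% for chromosome 3. Stricter thresholds (0.45 and -0.70) gave 0% for chromosomes 3 and 9, 7.69% for 7 and 23.1% for 14, 18 and 19. Looser thresholds (0.20 and -0.25) gave 100% for chromosome 18 and 69.2% for 7.

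The changes occurred together in single cells. Loss of distal chromosome 13 with gain of the start of chromosome 8 was found in 10 of 13 cells with chromosome 10 lost (76.9%, 46.2 to 95.0) and in 0 of 34 others (up to 8.82%). With the proximal gain of chromosome 6 as well, it was found in 9 of 13 and 0 of 34 cells. In the 10 cells, the start of chromosome 8 lay at 0.91 to 1.06, proximal chromosome 6 at 0.27 to 0.68 and chromosome 19 at 0.24 to 0.38. None of the 4 changes (distal 13 and distal 14 lost, start of 8 and proximal 6 gained) was found in 1 of 13 cells with chromosome 10 lost and in 25 of 34 others (73.5%, 55.6 to 87.1). These 10 cells, picked by their levels of chromosomes 10 and 13, thus lay close together at the start of chromosome 8 and on chromosome 19. Among themselves they spread more widely elsewhere. The window of chromosome 13 ran from -0.25 to 4.08 in them, distal chromosome 1 from -0.08 to 0.40, distal chromosome 14 from -0.58 to 0.00 and chromosome 17 from -0.10 to 0.31. Chromosome 7 ran from -0.65 to 0.14, chromosome 11 from -0.55 to 0.13 and the stretch of chromosome 2 from -0.50 to 0.04.

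**Figure D5:**
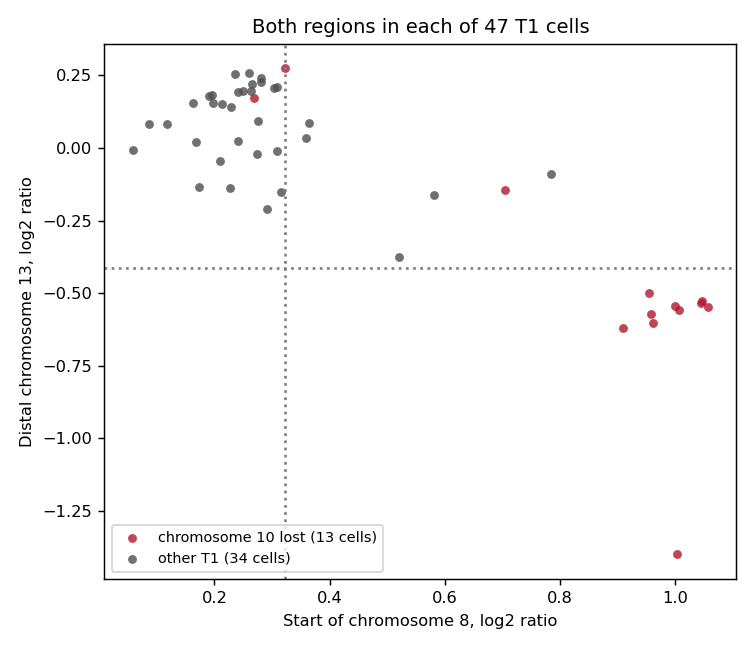
Level of distal chromosome 13 (vertical axis, log2 ratio) against the start of chromosome 8 (horizontal axis, log2 ratio) in each T1 cell, with the 13 cells with chromosome 10 lost in red, the 34 other T1 cells in grey and dotted lines at the loss and gain thresholds. The lower right holds 10 red points and no grey one, and 3 red points lie apart from these 10.

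The other 3 of the 13 cells with chromosome 10 lost did not follow this set. Cell 180031 had the lowest chromosome 10 of all, at -0.70, yet distal chromosome 13 lay at 0.17, the start of chromosome 8 at 0.27 and chromosome 19 at -0.19. Its altered share of 11.4% was the lowest of the 13 cells. Cell 180006, in which 54.2% of chromosome 10 lay in lost segments, had distal chromosome 13 at 0.27 and chromosome 11 at -0.74. Its start of chromosome 8 lay at 0.32, barely past the gain threshold, and is counted as gained above. Cell 180045 lay between, with distal chromosome 13 at -0.14, the start of chromosome 8 at 0.70, chromosome 19 at 0.06 and chromosome 10 at -0.64. Loss of chromosome 10 and the other changes were therefore not the same set of cells.

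In the other direction, a few of the 34 other T1 cells carried part of the set. The start of chromosome 8 was gained in 5 of them, without loss of distal chromosome 13 in any of the 5. Cell 180001 had chromosome 10 at -0.28, distal chromosome 13 at -0.38, the start of chromosome 8 at 0.52, distal chromosome 14 at -0.34 and the chromosome 13 window at 2.67. Cell 180019, the nearest to the threshold, had chromosome 10 at -0.38, the start of chromosome 8 at 0.58, proximal chromosome 6 at 0.57 and the window at 1.46. Cell 180046 had chromosome 10 at -0.30, the start of chromosome 8 at 0.36 and the window at 1.97. These 3 cells had the lowest chromosome 10 of their group. Their start of chromosome 8 lay between the medians of both groups, and their window lay above both medians. Cell 180001 also had weaker losses of the chromosomes that nearly all T1 cells had lost, with chromosome 4 at -0.31 and chromosome 9 at -0.31. Whether a library held more than 1 cell was not tested. Cell 180047 had chromosome 10 at -0.05, the start of chromosome 8 at 0.78, chromosome 19 at 0.54 and the window at 2.44, so high levels there also occurred without a low chromosome 10. Cell 180040 had the start of chromosome 8 at 0.36, with chromosome 10 at -0.10 and the window at 0.17.

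The likeness of whole profiles, taken over the medians of the 18 autosomes without chromosome 10, was compared next. For 7 of the 13 cells with chromosome 10 lost (53.8%, 25.1 to 80.8), the T1 cell with the highest Pearson correlation had also lost it, where 26.1% of the possible partners had. Cells 180033, 180039 and 180041 all matched cell 180001 best, which carried part of the set as given above. Its median correlation was 0.83 with the cells with the loss and 0.60 with the others. Cells 180006, 180031 and 180045 matched cells 180043, 180005 and 180019 of the other group. For the other 34 cells the best match had lost chromosome 10 in 2 (5.88%, 0.72 to 19.7), where 28.3% of the possible partners had. The 2 were cells 180001 and 180047. The correlations share 1 tumour and describe these cells only. Their median was 0.78 between pairs of cells with chromosome 10 lost, 0.65 between a cell with the loss and another T1 cell, and 0.87 between pairs of other T1 cells. Cells 180035 and 180038 were the closest pair with the loss at 0.99, and cell 180031 matched cell 180005 of the other group at 0.94. The cells with chromosome 10 lost thus had a lower median correlation among themselves than the other T1 cells had. Single cells with the loss differed in this. Their median correlation with the group ran from 0.51 in cell 180031 and 0.52 in cell 180006 to 0.87 in cell 180002.

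Listed cancer and lung genes outside chromosome 10 were set against all bins. By segment means, 23% of the 4551 bins outside chromosome 10 had a median at least 0.1 higher with chromosome 10 lost and 20.9% one at least 0.1 lower, with a median difference of 0.07. Of the 78 listed genes on other autosomes, 18 were higher and 17 lower by that amount, with a median difference of 0.07, so the lists as a whole stood close to all bins. Of 20 oncogenes, 5 were higher and 4 lower, and of 18 tumour suppressors, 2 were higher and 2 lower. Of 14 spindle checkpoint and segregation genes, 2 were higher and 4 lower. Of 8 genes of alveolar type 2 identity, 2 were higher and 1 lower, and of 12 genes of plasticity and the mesenchymal state, 1 was higher and 6 lower. All 6 genes of the windows on chromosomes 8 and 13 were higher, and these were listed because those windows were known to be gained in T1. Genes on 1 chromosome share its segments, so a list's count reflects a few chromosomes and not separate genes.

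T7 offers the same split in cells the T1 rule did not use. Its 8 cells with chromosome 10 lost had a median chromosome 10 level of -0.65, against -0.02 in the other 40 T7 cells, again as chosen by the rule. On the other 18 autosomes the largest difference between these T7 groups was 0.07, on chromosome 6, and the common offset was 0.01. Measured from each tumour's own offset, 0 autosomes of T7 differed by 0.08 or more, and 6 of T1 did. Chromosome 13 had -0.01 in T7 cells with the loss and -0.03 in the others, and chromosome 19 had -0.01 and -0.02. The differences were 0.02 for chromosome 13 and 0.01 for chromosome 19, where T1 had -0.58 and 0.46. Gained or lost segments covered 13.9% of the other autosomes in T7 cells with the loss and 13.6% in the other T7 cells. The gains of chromosomes 2 and 6 that mark T7 were called in 8 of 8 cells with chromosome 10 lost, and in 26 and 29 of the 40 others. Median noise was 0.173 in T7 cells with the loss and 0.144 in the others. The difference between the 2 tumours was not tested, since each is a single sample.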

How the data were processed

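Libraries of single cells had been mapped with BWA (version 0.7.17, build GRCm38) according to the submitters' processing notes. The deposited depth is the coverage signal per bin. The deposited log2 ratio was used as given, and the deposited weight is a score from 0 to 1, the same in all cells. The making of the ratio and weight and the amplification were not given in the sources used here. Doublets were not called. Bins with values in at least 80% of cells were kept (5149 of 5331, with 4806 autosomal). Noise was 1.4826 times the median absolute difference of neighbouring autosomal bins over the square root of 2, which left out 3 T1 cells, with chromosome 10 at -0.16, -0.15 and -0.40. Cells were centred on their autosomal median, so a doubled genome cannot be seen.

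Gain was called at 0.32 or more and loss at -0.42 or less, the log2 of 2.5 and 1.5 copies over 2, on the median of a chromosome or region. Segments minimised squared error plus 3 ln(bins) per break, with at least 5 bins and 10 Mb. They were checked on T9 cells with their own segment means taken off and known steps planted. As those cells were already flattened, the check does not measure false calls in cells as sequenced. Genes took the segment mean of their bin (RefSeq positions, GRCm38.p6, 103 of 103 matched). No genome was used here, so genes per bin stood in for GC content. Named chromosomes differed by 0.08 in median or 15 percentage points in calls, or were 4, 6 or 9. Named regions were the 8 longest runs of bins that differed by 0.2, which that choice makes large, and runs called in at least 20% of T1 cells under 80% of a chromosome. Named genes were listed ones on chromosome 10, by example, and the 20 elsewhere with the largest differences of at least 0.1. Members, lists and regions were chosen with earlier results of these data known, and the joint counts and single cells after their values were seen. No 2 T1 columns were identical (highest correlation 0.87 over autosomal bins, where the profile correlations above are over chromosome medians). Another engineered allele and 1 named gene are not reported here. Software was Python 3.11.15, matplotlib 3.10.9, numba 0.67.0, numpy 2.4.6, scipy 1.17.1 and pandas 2.3.3. Alternatives were the centring, the ratio from depth, the noise limit, the cut on chromosome 10, weighted means, thresholds, bin difference, penalty and the profile correlated.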

Additional observations from a re-analysis of the deposited data

How the results depend on the processing

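Of 341 recomputations of the main results, 316 stayed within the spread over cells or within 1.5 times a count, and none of the 341 turned a called value's direction. Of 668 recomputations of other results, among them the named regions, 623 stayed so and 45 moved. The difference for the named part of chromosome 5 ran from -0.058 to 0.10, so its sign was not stable. With stricter thresholds (0.45 and -0.70), the difference in called autosomes was 0.13 and in altered share 1.66 points. Under them loss of chromosome 13, and likewise of its distal part, was called in 7.69% of the cells with chromosome 10 lost, and loss of distal chromosome 14 in 0%. With looser thresholds (0.20 and -0.25) the difference in called autosomes was 2.93, gain of the start of chromosome 8 was called in 100% of the cells with chromosome 10 lost and 73.5% of the others, and gain of proximal chromosome 6 in 70.6% of the others. The altered share differed by 12.1 points with centring without chromosome 10, by 11.4 with centring on the mode and by 8.08 with the ratio from depth. Centring on the mode gave the proximal gain of chromosome 6 in 6.06% of the others. From depth, chromosome 13 was lost in 16.7% of the cells with chromosome 10 lost, and the start of chromosome 8 was gained in 100% of them and in 42.9% of the others. The weighted mean gave differences of -0.057 on chromosome 8 and -0.41 on chromosome 13, with chromosome 13 lost in 7.69%. A bin difference of 0.15 gave 949 higher bins, and 0.3 gave 334 higher and 293 lower. Without the 4 cells that lost chromosome 10 but not 13, a choice made after seeing the data, both chromosome 13 counts and the gain of the start of chromosome 8 were 100%, the first by construction. The cause was not tested in the other cases. No paired analysis was possible because no replicate number is shared between the groups. The number of cells limits every share, and the noise of a bin limits small steps.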
